A study of Xenopus laevis with 35 samples.

Results

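Xenopus laevis tadpoles were exposed for 48 h to inhibitors of thyroid hormone synthesis, and gene expression in the brain was compared with that of control tadpoles. Every array labelled as brain at 48 h was taken, which gave 12 of the 35 arrays of the series. Of these, 3 came from tadpoles labelled control, 3 from tadpoles in MMI at 100 mg/L, 3 from tadpoles in PTU at 20 mg/L and 3 from tadpoles in PER at 4 mg/L. No chemical is named for the controls, and what their water held is not stated. All tadpoles were at Nieuwkoop and Faber (NF) stage 54 when exposure began, and no transgene or other treatment is named. Per the labels, 5 tadpoles from each of a pair of tanks, 10 per group, were sampled, and their brain RNA was combined into 3 pools. So an array measures pooled brains, the p-values measure the spread between pools, and tank and treatment cannot be told apart within a group.

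The short names stand for methimazole (MMI), propylthiouracil (PTU) and perchlorate (PER), a reading taken from general knowledge and not from the labels. Methimazole and propylthiouracil are thionamides that inhibit thyroid peroxidase, the enzyme that puts iodine on thyroglobulin, while perchlorate competes with iodide at the sodium-iodide symporter that brings it into the gland. Propylthiouracil also inhibits type 1 deiodinase in mammals. Rising thyroid hormone drives amphibian metamorphosis, and in the tadpole brain it is known to increase proliferation of progenitor cells and later neuronal differentiation, through receptors that switch on early target genes such as klf9 and thibz. The gland also stores finished hormone. No hormone level was among the values analysed here.

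The array held 2 neighbouring spots of each of 449 probes, of which 250 carry a gene name. A gene's suffix, .L or .S, is the copy on the long or short chromosome of the pair that the frog's genome duplication left, and whether a probe reads only that copy was not tested. Values are radioactive signals after background subtraction, so they can lie below 0, and are given here in scaled intensity units. A probe counted as above background on an array when the mean of its spots exceeded 2 background SDs, the background SD being the root mean square of that array's negative values. The number of probes above background was 101 to 147 on the control arrays, 116 to 124 with MMI, 112 to 131 with PTU and 157 to 209 with PER. Background SDs were 1041, 432 and 966 units on control replicates 1, 2 and 3 and 239 to 613 units on the 9 exposed arrays, a difference between means of -343.5 units (exact permutation test, two-sided, p = 0.0545, n = 9 and 3, and p = 0.0727 without PER replicate 3). Over 98 bright probes the control arrays also correlated less with each other, at 0.831 to 0.873 against 0.880 to 0.924 within the exposed groups. Bright probes here were above background on at least 6 of the 12 arrays and had no empty value. Since 9 of those arrays were exposed, this choice favours probes that are bright in exposed brains. The part of that choice in the difference was not tested. Without PER replicate 3 the exposed arrays reached up to 0.953. Each value is the mean correlation of an array with the others of its group. The values within a group share arrays and are not independent, so they are given without a test. The third PER array held nearly the same values as the first PER array of 24 h, with a Pearson correlation of 0.9999 and a ratio within 0.001 of 1.0449 for 70 of the 72 spots over 5000 units. Calls and main changes for PER and for all exposures together are therefore given with and without it. Counts of separated probes, and values without such a mention, include it.

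**Figure D1:**
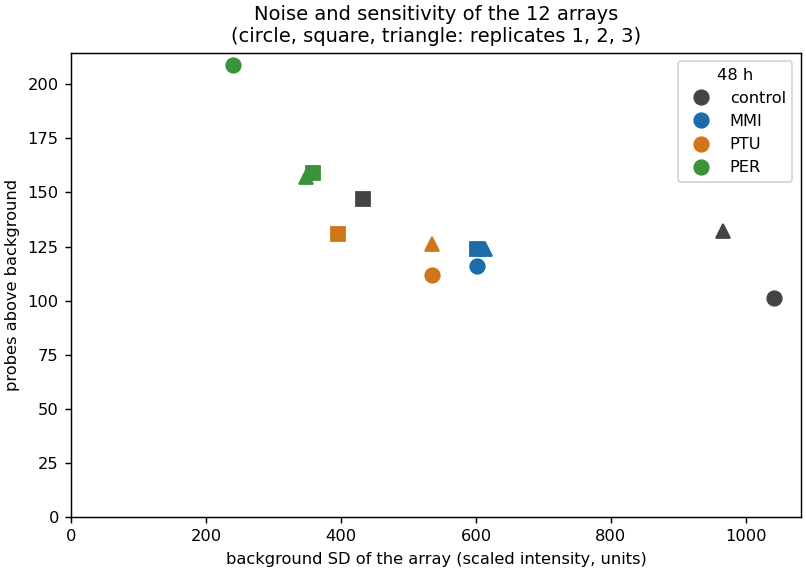
Background SD (horizontal axis, scaled intensity units) against the number of probes above background (vertical axis) for the 12 arrays of 48 h; each point is 1 array, coloured by group. Control replicates 1 and 3 have the largest background SDs, 1041 and 966 units, while PER replicate 1 has the smallest, 239 units, and the most probes above background, 209.

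Set against control, the 9 exposed arrays differed for 2 genes. The signal of msi1.S, which encodes Musashi, an RNA-binding protein of neural stem and progenitor cells, was higher. The signal of fzd2.S, which encodes Frizzled-2, a receptor for Wnt ligands at the cell surface, was lower. The ribosomal protein gene rpl35a.S was lower and, as scaled here, the beta-tubulin gene tubb4b.L higher on all 9 exposed arrays, but neither passed the test. Of 439 probes tested, 2 (0.456%) passed an adjusted p of 0.05 in limma over all probes, 1 in each direction, and 39 (8.88%) had an unadjusted p under 0.05, 7 higher (1.59%) and 32 lower (7.29%). On 10 of 422 probes with enough values (2.37%) every exposed array lay above every control array, and on 6 (1.42%) every exposed array lay below.

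The msi1.S signal was -839, 1126 and -1402 units on the 3 control arrays. It was 4610, 4607 and 4120 units with MMI, 2253, 3986 and 2705 units with PTU and 3082, 4695 and 3575 units with PER. All 9 exposed arrays were above background and above the highest control, while only control replicate 2 was above background. Over all probes, the lowest signals above background on control replicates 1 and 3 were 2116 and 1943 units, near the lowest PTU array. The mean log2 change over the exposures was 2.31 (SE 0.46, adjusted p = 0.00943 in limma), and it was 2.32 (SE 0.48, adjusted p = 0.0165) without PER replicate 3. By compound the log2 change was 2.56 with MMI (SE 0.57, adjusted p = 0.0376), 2.04 with PTU (SE 0.57, adjusted p = 0.161) and 2.34 with PER (SE 0.57, adjusted p = 0.0767, or 0.136 without replicate 3). Taken spot by spot, the 6 control spots spanned -3170 to 2025 units and the 18 exposed spots 1911 to 5729 units, so they overlapped only at the edge. Because 2 of the 3 control values are below 0, the size of the change depends on the offset added before taking logs, 602 units here. Control replicate 1, control replicate 3 or the second of each pair of spots could not be left out without ending the pooled call (adjusted p = 0.072, 0.0941 and 0.184).

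For fzd2.S the control arrays read 4876, 896 and 1701 units. The exposed arrays read 258, 556 and 410 units with MMI, -75, 135 and -1 units with PTU and 119, 448 and -57 units with PER. No exposed array was above background, 2 of the 3 control arrays were, and the groups did not overlap, although control replicate 2 was close to the highest MMI array. Single spots did overlap, at 378 to 4928 units in controls and -354 to 868 units in exposed brains. The mean log2 change was -1.75 (SE 0.37, adjusted p = 0.0103 in limma), and -1.69 (SE 0.38, adjusted p = 0.0248) without PER replicate 3. Since the exposed level is only bounded, the signal was at least 2.13-fold lower, or 1.35-fold without control replicate 1, taking as exposed level the mean of the lowest signals above background on those arrays. Control values enter as measured, also that of replicate 3, which was below background, so this bound covers the exposed side only. With PTU the log2 change of -2.05 passed on its own (SE 0.46, adjusted p = 0.0376, at least 1.98-fold lower, or 1.25-fold without control replicate 1), while MMI gave -1.41 (adjusted p = 0.598) and PER -1.79 (adjusted p = 0.0767). Control replicate 1 carried much of this difference: without it the mean change was -1.23 and the adjusted p 0.184, and with the second spots alone it was -1.32 (adjusted p = 0.237). The offset at the 5th percentile, quantile normalization and alignment on the median of all probes ended the pooled call too (adjusted p = 0.183, 0.0615 and 0.124).

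**Figure D2:**
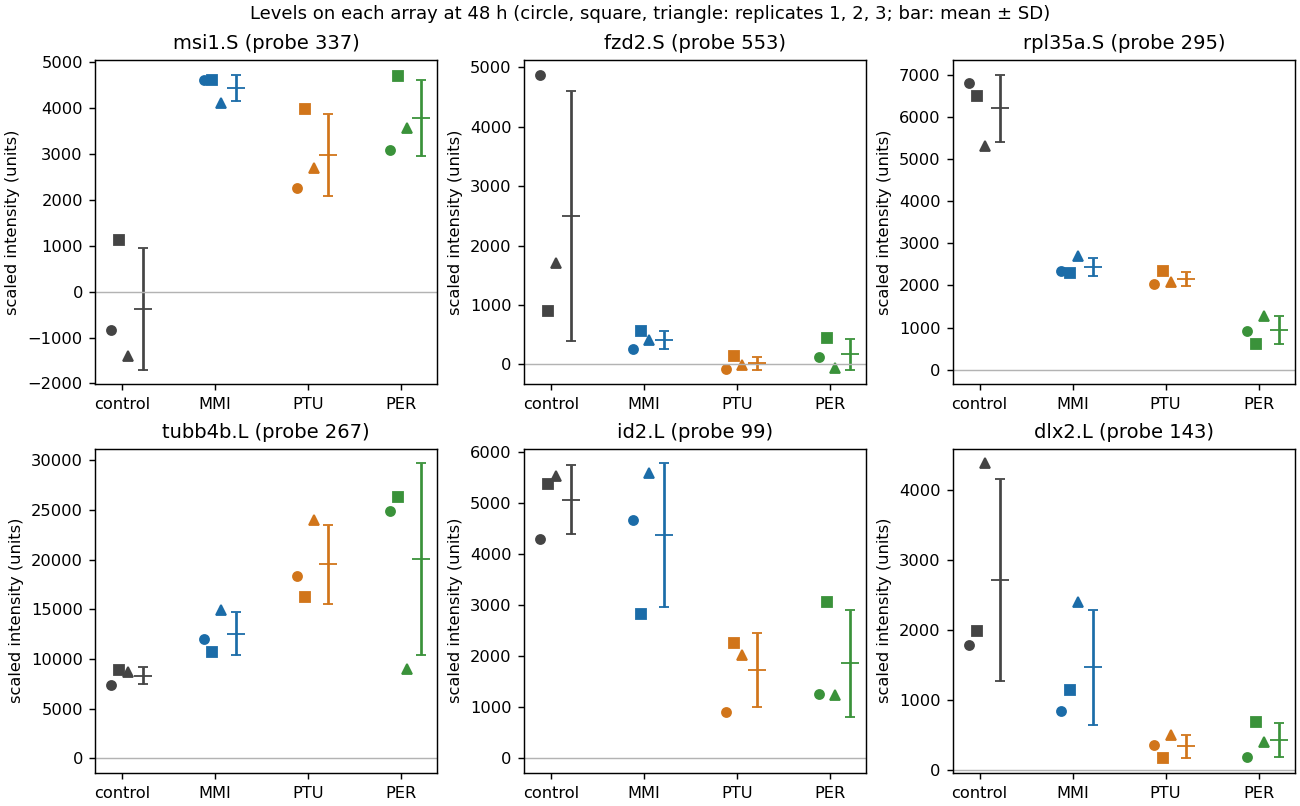
Scaled intensity (vertical axis, units) of 6 probes on each of the 12 arrays of 48 h, by group; circles, squares and triangles are replicates 1, 2 and 3, and the bar beside them is the mean ± SD (n = 3). All exposed points of msi1.S lie above the controls and all exposed points of fzd2.S and rpl35a.S lie below them, whereas MMI overlaps the controls for id2.L and dlx2.L.

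The ribosomal protein gene rpl35a.S, for a protein of the large ribosomal subunit, had 6803, 6508 and 5301 units on the control arrays. It had 2353, 2295 and 2687 units with MMI, 2028, 2347 and 2082 units with PTU and 908, 610 and 1275 units with PER. The groups were far apart on every array, and so were the single spots, at 4218 to 9388 units in controls and 89 to 2996 units in exposed brains. Even so, the mean log2 change of -1.54 (SE 0.47) had an adjusted p of 0.142 in limma with the spread estimated over all 35 arrays. With the spread taken from the 12 arrays of 48 h alone, the same change passed (adjusted p = 0.00317), and so did the change with PER of -2.17 (adjusted p = 0.000829, against 0.0767 over all arrays). Without PER replicate 3, and with the spread over all times, the pooled change was -1.59 (SE 0.49, adjusted p = 0.131). At other times the same probe varied more between replicates, with an SD of 4886 units over the 3 control arrays of 96 h.

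Beta-tubulin tubb4b.L, a building block of microtubules, read 7358, 8867 and 8704 units in controls. With MMI it read 11975, 10692 and 14928 units, with PTU 18392, 16264 and 23944 units, and with PER 24879, 26321 and 8956 units. As scaled, every exposed array was above every control, though PER replicate 3, the array shared with 24 h, lay just above the highest control. The log2 scaling was -0.103 for this array, beside -0.0479 and 0.0554 for control replicates 2 and 3. On the deposited values it lay below both. The mean log2 change was 0.93 (SE 0.30, adjusted p = 0.179 in limma), and without PER replicate 3 it was 1.09 (SE 0.28, adjusted p = 0.0515). For PER alone, leaving that array out moved the log2 change from 1.08 (adjusted p = 0.331) to 1.56 (adjusted p = 0.0511).

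A growth-cone protein of extending axons, gap43.S, also kept its groups apart, with 16350 to 18674 units in controls and 19071 to 38711 units (median 22419) in exposed brains. Its mean log2 change was 0.41 (SE 0.40, adjusted p = 0.822 in limma), or 0.46 (SE 0.41, adjusted p = 0.823) without PER replicate 3. So the separation was small beside the spread of this probe over the series. The gene adam22.L, for a membrane protein of neurons related to the ADAM proteases, had 1270, 980 and 2858 units in controls and -364 to 574 units (median 77) in exposed brains. No exposed array except PER replicate 1 was above background for adam22.L, and the mean log2 change was -1.49 (SE 0.45, adjusted p = 0.142). Without PER replicate 3 it was -1.45 (SE 0.46, adjusted p = 0.165).

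Most other low-p probes were dim and lower in exposed brains. Among probes above background on at least 6 of the 12 arrays, 6 of 112 were higher and 4 lower at an unadjusted p under 0.05, with a median log2 change of -0.03. Among probes above background on 1 to 5 arrays, 1 of 234 was higher and 27 were lower, with a median of -0.14. Of the 93 probes never above background, 0 were higher and 1 lower. The split is tied to direction, since 9 of the 12 arrays were exposed. A probe above background only in controls reaches at most 3 arrays and falls among the dim probes. A probe above background only in exposed brains can reach 9 and count as bright. So these counts do not show by themselves that dim probes fell. Control replicates 1 and 3 had the largest background SDs, and the part of that noise in the excess of lower dim probes was not tested. The direction of small changes of bright probes depends on scaling, since their median pooled change of -0.03 became 0.19 on the deposited values, 0.16 after quantile normalization and 0.37 with arrays aligned on the median of all probes. Of the 112 bright probes, 53 were higher and 59 lower as scaled here, against 70 and 42, 72 and 40, and 86 and 26 under those scalings.

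**Figure D3:**
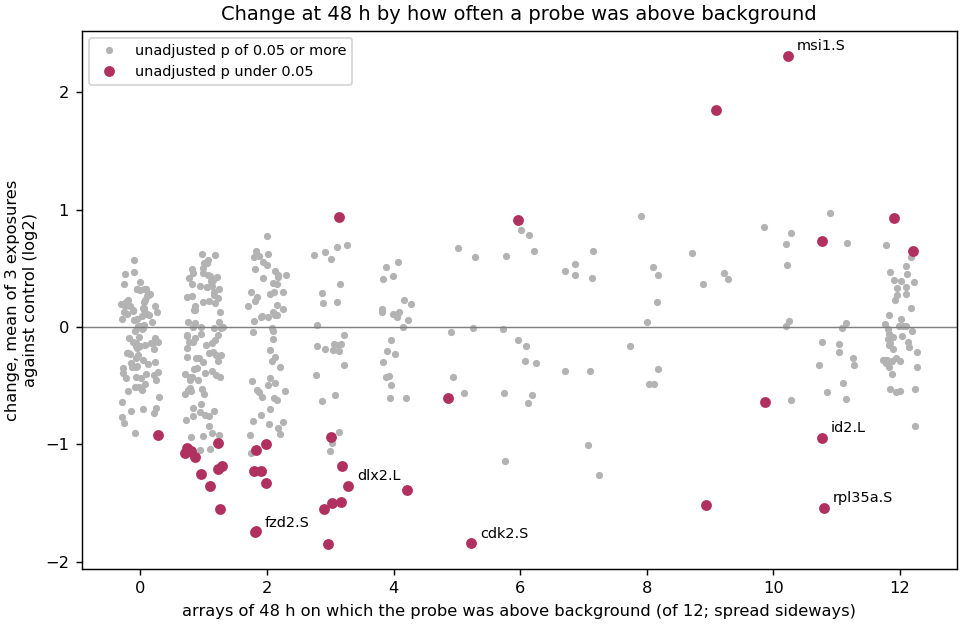
Mean log2 change of the exposed groups against control (vertical axis) for the 439 probes tested, by the number of 48 h arrays on which the probe was above background (horizontal axis, points spread sideways); dark points have an unadjusted p under 0.05. Among probes above background on 1 to 5 arrays 27 dark points lie below 0 and 1 above, whereas the brighter probes have 4 below and 6 above. With 9 exposed and 3 control arrays, the horizontal axis is itself tied to direction.

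With MMI the msi1.S signal was higher than in the 48 h controls, as given above, and no other gene passed. That is 1 of 444 probes (0.225%) in limma, and 26 (5.86%) had an unadjusted p under 0.05, 7 higher and 19 lower. The call was lost under 15 of 24 alternatives, among them the removal of any single MMI array, control replicate 1 or 3, PTU replicate 3, PER replicate 2 or 3 or the PER array of 24 h that repeats the latter (adjusted p up to 0.221). Arrays with MMI lay wholly above control on 31 of 408 probes (7.6%) and wholly below on 29 (7.11%). Myelin basic protein, mbp.S, a main protein of the myelin sheath, was 2942, 3251 and 1703 units in controls and 12342, 9417 and 6955 units with MMI. The groups did not overlap, and the log2 change was 1.65 (SE 0.66, adjusted p = 0.67), beside 0.18 with PTU and 0.72 with PER. With PTU the 3 arrays read 3043, 7632 and 915 units and with PER 6227, 10976 and 1168 units, which spans the controls in both cases. Nuclear factor 7, xnf7.L, a zinc finger protein first described in the Xenopus oocyte, had 3764, 4461 and 3984 units in controls and 8063, 8315 and 10841 units with MMI. Its log2 change was 1.04 with MMI (SE 0.47, adjusted p = 0.726), 0.28 with PTU and 0.77 with PER. Of the 20 cell cycle probes, 9 were higher and 11 lower with MMI, with a median of -0.01, and 1 was higher and 2 lower at an unadjusted p under 0.05. The higher one was mcm5.L, a subunit of the replicative helicase (adjusted p = 0.67), and the lower ones were cdk2.S (adjusted p = 0.598) and ccnh.L (adjusted p = 0.703), cyclin and kinase genes that were above background on no MMI array. The mitotic kinase cdk1.S lay above all controls (adjusted p = 0.741), and neither cdk1.S nor mcm5.L was above background on a control array. Over the 12 arrays of 48 h, mcm5.L was above background on 1 and cdk1.S on 4. Changes of the sliding clamp gene pcna.S and the helicase subunit mcm2.L were 1.23 each (adjusted p = 0.741), overlapped the controls, and ranged from 0.21 to 1.97 and from 0.86 to 1.91 with arrays left out in turn.

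With PTU the fzd2.S signal was lower than in the 48 h controls, as given above, and no other gene passed. That is 1 of 442 probes (0.226%) in limma, and 45 (10.2%) had an unadjusted p under 0.05, 9 higher and 36 lower. The call was lost under 15 of 23 alternatives, among them the removal of any single PTU array, control replicate 1 or 3, PER replicate 1 or the PER array of 24 h that repeats an array of 48 h (adjusted p up to 0.251). Arrays with PTU lay wholly above control on 26 of 412 probes (6.31%) and wholly below on 49 (11.9%). Of the 14 neural transcription factors 6 were higher and 8 lower with PTU, 1 and 4 of them at an unadjusted p under 0.05, and 0 passed. The homeobox gene dlx2.L, which acts in the formation of inhibitory forebrain neurons, had 1790, 1988 and 4387 units in controls, 364, 168 and 494 units with PTU and 848, 1143 and 2408 units with MMI. PTU was below every control and MMI overlapped them, with log2 changes of -1.75 (SE 0.42, adjusted p = 0.0553) and -0.67 (adjusted p = 0.762). No PTU array was above background, so the signal with PTU was at least 2.54-fold lower, or at least 1.91-fold without control replicate 3. Control values again enter as measured, also that of replicate 1, which was below background. The spots of control replicate 3 differed, at 8789 and -14 units, and with the second spots alone the PTU change was -1.16. Its relative dlx5.L, from the same gene family, had 2068, 2471 and 3644 units in controls and 212, 340 and 1027 units with PTU (log2 change -1.60, SE 0.65, adjusted p = 0.347). The gene id2.L, whose protein inhibits basic helix-loop-helix factors and so holds back differentiation, had 4291, 5377 and 5527 units in controls and 911, 2251 and 2024 units with PTU. It did not overlap the controls with PTU, and the log2 change was -1.33 (SE 0.39, adjusted p = 0.165). Casein kinase 1 alpha, csnk1a1.L, which marks beta-catenin for destruction in the Wnt pathway, had 14432, 8367 and 8655 units in controls and 6843, 5491 and 2648 units with PTU (log2 change -1.03, SE 0.41, adjusted p = 0.347). The cyclin-dependent kinase gene cdk2.S, of the step into DNA replication, had 7192, 882 and 2659 units in controls, 42, 413 and -49 units with PTU and 114, 269 and 315 units with MMI. No array with either compound was above background or reached the lowest control, and neither change passed (adjusted p = 0.164 with PTU and 0.598 with MMI). The signal was at least 2.60-fold lower with PTU and 2.08-fold lower with MMI, or 1.55-fold and 1.24-fold without control replicate 1. The PER arrays, at 43, 770 and 2128 units, overlapped the controls. Higher with PTU, and not passing, were hmgn3.L, for a protein that binds nucleosomes (0.90, adjusted p = 0.347), the glycolytic enzyme gapdh.S (0.87) and the neuronal differentiation factor neurod1.L (1.18, adjusted p = 0.347). The sizes for hmgn3.L and gapdh.S depend on the scaling, from 0.31 and 0.18 after quantile normalization to 1.61 and 1.57 with arrays aligned on the median of all probes. For neurod1.L only 2 control arrays held a value, neither above background, and the PTU change ranged from 0.85 to 2.80 over the alternatives.

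With PER 0 of 445 probes (0%) passed in limma, and 34 (7.64%) had an unadjusted p under 0.05, 10 higher and 24 lower. Arrays with PER lay wholly above control on 50 of 424 probes (11.8%) and wholly below on 27 (6.37%). The 4 probes nearest the threshold were msi1.S, fzd2.S, rpl35a.S and dlx2.L, each with an adjusted p of 0.0767. Without replicate 3 their adjusted p in limma was 0.136, 0.202, 0.136 and 0.152, in that order. For dlx2.L the PER arrays read 191, 685 and 405 units, all below the controls, with a log2 change of -1.64 (SE 0.42). None was above background, and with control values as measured the signal was at least 3.96-fold lower. It was at least 2.99-fold lower without control replicate 3, whose spots differed as given above. With the second spots alone the change of dlx2.L with PER was -0.73. For id2.L the PER arrays read 1265, 3065 and 1241 units, again below every control. Its log2 change was -1.28 (SE 0.39, adjusted p = 0.202), or -1.11 (SE 0.44, adjusted p = 0.592) without replicate 3. Lactate dehydrogenase A, ldha.L, which turns pyruvate into lactate, had 1799, 1947 and 2220 units in controls and 4429, 6879 and 2215 units with PER. Only replicate 3 overlapped, and the log2 change was 0.87 (SE 0.39, adjusted p = 0.579), or 1.25 (SE 0.42, adjusted p = 0.298) without it. The mbp.S change with PER rested on the same array, at 0.72 with it and 1.49 (SE 0.69, adjusted p = 0.625) without it. With replicate 3 left out no change with PER passed either.

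The concentrations of the compounds differed, so these changes are set side by side and say nothing about potency. An F test for any difference among the 3 exposures called 0 of 439 probes (0%) in limma, with 20 (4.56%) at an unadjusted p under 0.05. Ribosomal protein rpl8.S was read by 5 probes, and probe 81 had the lowest p of them (0.00148, adjusted p = 0.453), with log2 changes of 0.84 with PTU, 0.05 with MMI and -0.58 with PER. The other rpl8.S probes gave 0.10, 0.54, 0.18 and -0.07 with PTU and -0.98, -0.46, -0.28 and -0.49 with PER, so PER was the lower of both on all 5. For id2.L the unadjusted p was 0.0123 (adjusted p = 0.479), and MMI, at 4677, 2832 and 5600 units, was the compound nearest control. For dlx2.L the unadjusted p was 0.0309, with MMI again nearest control, and for hmgn3.L it was 0.00412, with MMI at -0.29 against 0.90 and 0.75. No response was thus shown to be particular to a compound.

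**Figure D4:**
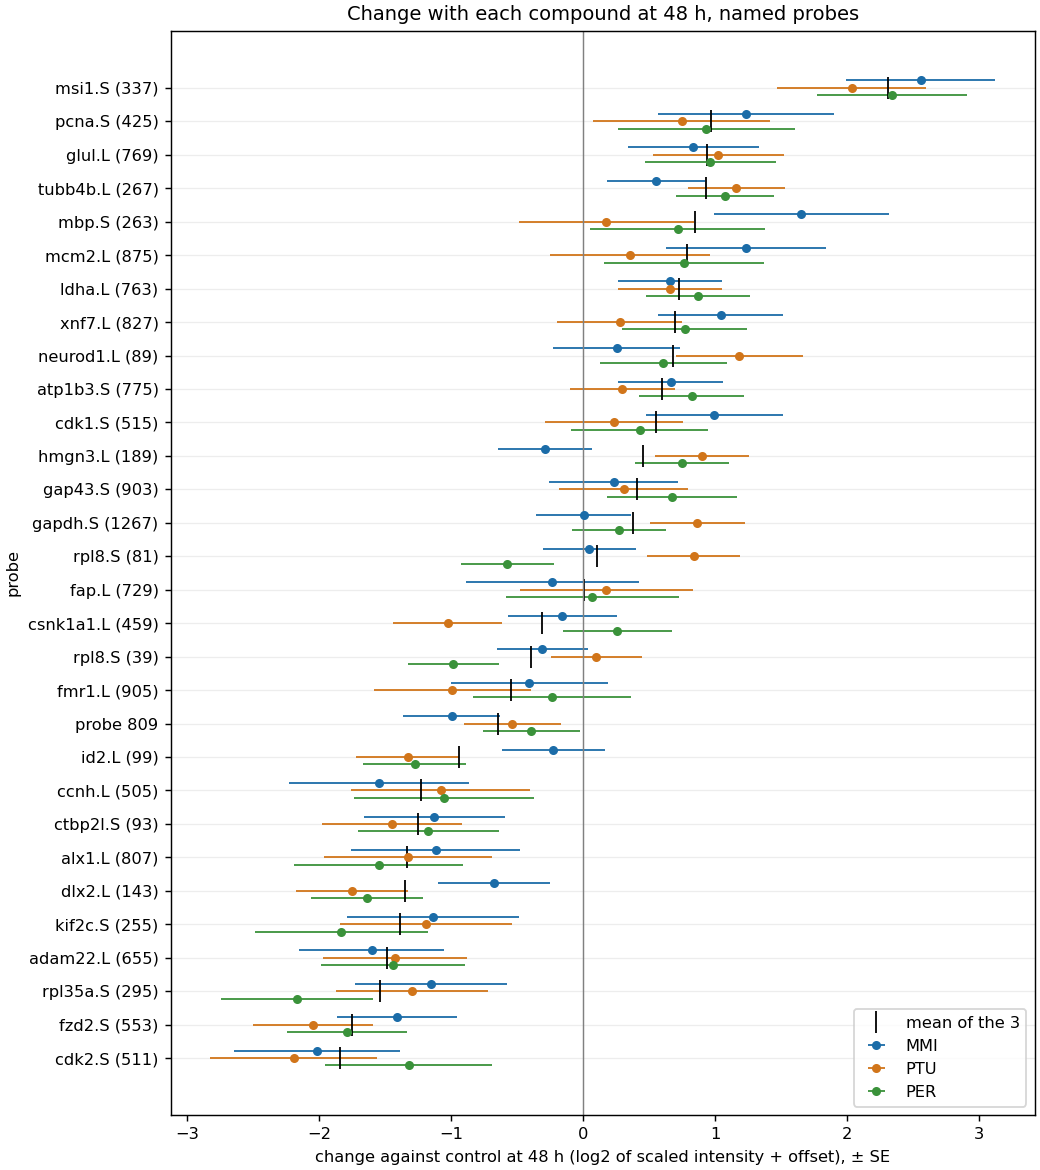
Log2 change against control (horizontal axis, log2 of scaled intensity plus offset) of the 30 named probes with MMI, PTU and PER at 48 h; points are estimates, lines ± 1 SE, and the black tick is the mean over the 3 exposures. The points of msi1.S lie between 2.04 and 2.56 and those of fzd2.S between -2.05 and -1.41, while for id2.L and dlx2.L the MMI point lies nearer 0 than the other points.

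Gene groups were described by counts and medians, beside a median pooled change of -0.11 over all 439 probes. Of the 9 probes for genes of the thyroid hormone axis and response, 1 was above background on at least 6 arrays and 4 on none. That gene, fap.L, for a protease that thyroid hormone induces in the Xenopus tail, had 864 to 3603 units in controls and 567 to 4299 units (median 1736) in exposed brains, with a mean log2 change of 0.01 (SE 0.53). The early target genes klf9.L and thibz.L were above background on 1 and 0 of the 12 arrays, so a fall in them was not detectable at this signal. Thyrotropin-releasing hormone, trh.S, was above background on 1 array, control replicate 3, and had a log2 change of -1.06 (SE 0.43, adjusted p = 0.344). Pituitary and hypothalamic hormones and their receptors, 9 probes, included neuropeptide npy.S, above background on all 12 arrays, with a log2 change of -0.29 (adjusted p = 0.852). None of the 12 nuclear receptors and cofactors passed, and 1 of them, the co-repressor ctbp2l.S, had an unadjusted p under 0.05 (log2 change -1.25, adjusted p = 0.208), a share near the 8.88% of all probes. Control replicate 3 read -3126 and 7911 units on the paired spots of ctbp2l.S, and with the first spots alone the change was -0.50.

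Neural transcription factors numbered 14, of which 6 were higher and 8 lower, with a median pooled log2 change of -0.26. At an unadjusted p under 0.05 there were 4 lower and 0 higher, namely id2.L, dlx2.L, neurog2.L and egr2.L, and 0 passed the adjusted threshold. Among all probes tested 1.59% were higher and 7.29% lower at that p, and dlx2.L, neurog2.L and egr2.L were above background on 3, 3 and 2 arrays. The 3 members above background on at least 6 arrays, id2.L, dlx5.L and lmo3.S, were all lower, with a median of -0.94. Of the 5 Wnt pathway probes 0 were higher and 5 lower, and fzd2.S was the only member that passed. The others were csnk1a1.L (-0.31), wnt2b.L (-0.70), frat1.S (-0.65) and ctbp2l.S (-1.25), of which csnk1a1.L alone was above background on more than 2 arrays, and its sign turned to 0.11 with arrays aligned on the median of all probes.

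The cell cycle list held 20 probes, 19 of them with enough values for the pooled test, and its members went both ways, 9 higher and 10 lower with a median of -0.04. At an unadjusted p under 0.05 there were 0 higher and 2 lower of the 19, beside 7.29% lower among all probes, a share near the background. The lower members were cdk2.S and ccnh.L, the latter for a cyclin that activates other cyclin-dependent kinases (adjusted p = 0.476) and above background on 0 of the 9 exposed arrays. All 5 glycolysis and energy probes were above background on at least 11 of the 12 arrays, 4 higher and 1 lower. They were ldha.L (0.73), gapdh.S (0.38), aldoc.L (0.34), pkm.S (0.29) and ldhb.S (-0.53), and 0 passed. The 6 ribosome probes, all above background on at least 11 arrays, read only 2 genes, rpl35a.S with 1 probe and rpl8.S with the others. They were 1 higher and 5 lower in the pooled comparison and 0 higher and 6 lower with PER. These counts are of probes and not of genes, and the pooled signs of rpl8.S probes 39 and 81 turned with the scaling. In the axon, synapse and myelin list of 7 probes 4 were higher and 3 lower, and mbp.S and gap43.S were the members above background on at least 6 arrays.

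The remaining lists had no member that passed. Log2 medians were -0.17 for 5 cytoskeleton probes, 0.05 for 6 chromatin probes, 0.13 for 5 apoptosis probes, -0.33 for 3 chaperone and stress probes and -0.14 for 18 growth factor, Notch, BMP and hedgehog probes. RNA-binding proteins, 4 probes, had 1 that passed, msi1.S, beside pabpc1.S (0.34), ybx2.S (0.02) and the fragile X protein gene fmr1.L (-0.54). Of the brain markers on the array, mbp.S, msi1.S and gap43.S, each was above background on at least 10 arrays, and their summed level was 18050 to 23050 units in controls, 33090 to 37460 with MMI, 25390 to 34300 with PTU and 27160 to 54380 with PER. This sum holds msi1.S, the called gene, and in controls it was mostly gap43.S, with a mean of 17601 units. Both genes were described above for their separation from controls, so the sum is no separate result. The mbp.S arrays with PTU and PER spanned the controls. In pooled brains a change in the number of cells of a type and a change in RNA per cell cannot be told apart. Markers of other cells were few: the red cell gene hbd.S, the gut gene fabp2.L and the retinal gene crx.L were above background on 2, 2 and 1 arrays, and prl.1.L of the pituitary on 0. Growth hormone, gh1.S, the other pituitary marker, was above background on 11 arrays, with a log2 change of -0.21 (adjusted p = 0.872). The immune marker, casp1.L, was above background on 11 arrays at 2045 to 3880 units in controls, 2726 to 6203 with MMI, 818 to 2891 with PTU and 1724 to 2186 with PER.

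Whether the exposures acted differently at 48 h than at 24 and 96 h was tested as the difference between these effects. It passed for 2 of 434 probes (0.461%) in limma, both lower at 48 h, and 31 (7.14%) had an unadjusted p under 0.05, 16 higher and 15 lower. For fzd2.S the effect was -2.26 below the mean of the other times (SE 0.46, adjusted p = 0.00507), with log2 changes of 0.48 at 24 h, -1.75 at 48 h and 0.54 at 96 h. Control means were -1976 units at 24 h, 2491 at 48 h and -263 at 96 h, while exposed group means stayed between -3 and 1124 units over all times. For probe 809, which carries no gene name, the effect was -1.84 (SE 0.37, adjusted p = 0.00507), with log2 changes of -0.03, -0.64 and 2.41 at 24, 48 and 96 h. Its 48 h change did not pass (adjusted p = 0.499), and at 96 h the control mean was -742 units against 1667 to 3768 units in the exposed groups.

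Of the 30 named probes, 17 had pooled changes of the same sign at all 3 times, among them 6 genes described above. Some probes were named because earlier results of these data called them over the 3 times, such as msi1.S, tubb4b.L, dlx2.L and id2.L. Their agreement between times was thus partly selected, and the share over all probes is not given here. The log2 change of msi1.S was 0.66 (SE 0.47, adjusted p = 0.481), 2.31 and 1.26 (SE 0.54, adjusted p = 0.185) at 24, 48 and 96 h, the last over 2 control values, since 1 was empty. Its control means were 2274, -372 and 503 units, while exposed group means lay between 2523 and 4446 units over all times. The log2 change of rpl35a.S was -1.47 (adjusted p = 0.0735), -1.54 and -0.83, that of tubb4b.L 0.62, 0.93 and 0.98 (adjusted p = 0.0547 at 96 h), and that of dlx2.L -0.95, -1.35 and -0.85. For id2.L it was -1.70 at 24 h (SE 0.33, adjusted p = 0.00166), -0.94 at 48 h and -0.94 at 96 h, so the time with a call for id2.L was 24 h. The effect on gap43.S was 0.04, 0.41 and 1.78 (SE 0.40, adjusted p = 0.00899 at 96 h). None of these 6 passed the test of 48 h against the mean of 24 and 96 h. That test cannot see a steady trend or a difference between 24 and 96 h, and no other test between times was run. The sign of cdk2.S was not kept, with log2 changes of 0.74 at 24 h, -1.84 at 48 h and 0.35 at 96 h (adjusted p of the difference 0.0953). Without PER replicate 3 of 48 h its pooled 48 h change was -2.01 (adjusted p = 0.0515 in limma). The difference between times was then -2.56 (adjusted p = 0.0407 in limma), a call made in 3 of 24 settings. Control means of cdk2.S were -1829, 3578 and 859 units at 24, 48 and 96 h. On control replicate 1 of 48 h its spots read 2742 and 11643 units.

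**Figure D5:**
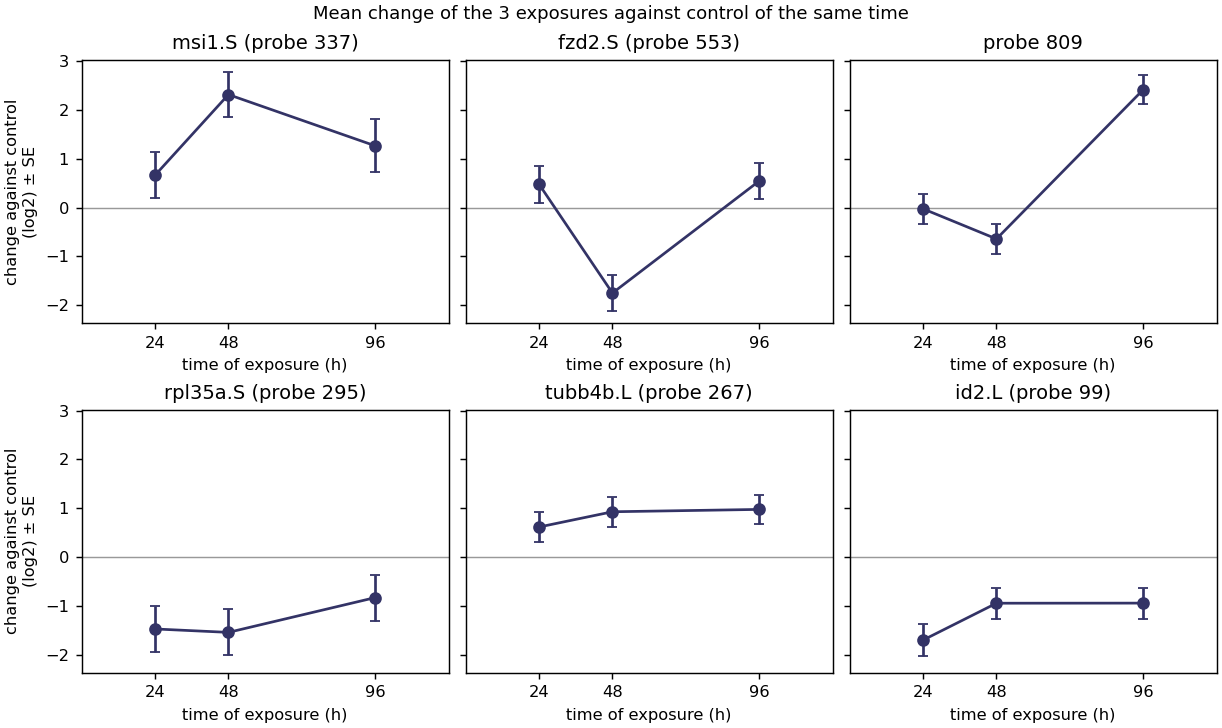
Mean log2 change of the 3 exposures against the control of the same time (vertical axis) at 24, 48 and 96 h of exposure (horizontal axis) for 6 probes; points are estimates and bars ± 1 SE. The fzd2.S point is below 0 at 48 h and above 0 at 24 and 96 h, probe 809 rises to 2.41 at 96 h, and rpl35a.S, tubb4b.L and id2.L keep their sign at all times.

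The labels describe another screen, by size: group means that differ at least 2-fold, a limit of 1.1 to 1.7 on the spread within each group, and at least 4 observations in each group. Taking single spots as observations, the spread on the log2 scale and the limit of 1.1, this screen passed 8 of 441 probes (1.81%) with MMI, 15 of 438 (3.42%) with PTU and 6 of 440 (1.36%) with PER. The genes msi1.S and rpl35a.S passed it with all 3 compounds, the former higher and the latter lower. Negative spots entered the screen at the offset of 602.02 units alone. The control spots of msi1.S spanned -3170 to 2025 units, so the size of its control spread, and with it its pass, depends on that offset. Whether msi1.S passes the screen with another offset was not tested. With PTU and PER, tubb4b.L passed as higher and id2.L as lower. With MMI alone, mbp.S and xnf7.L passed as higher, and with PTU alone dlx5.L, csnk1a1.L and nr2f1.L, a nuclear receptor of the developing forebrain, passed as lower. The Frizzled gene fzd2.S passed with none, since the spread of its control spots was over the limit. Without PER replicate 3 the number with PER was 15 of 436 (3.44%) in place of 6.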

How the data were processed

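Per the labels' protocols, brain RNA was amplified and reverse transcribed with a 32P label for a 1-channel array. As the authors deposited them, the intensity values are linear whole numbers for 898 spots on each of 35 arrays, with 677 cells empty. Neither background method nor scanner nor scaling between arrays is stated in the sources.

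The paired spots of a probe were averaged, and each array was scaled to the median of the 18 probes above background on all 35 arrays. Values under 0 were set to 0, an offset of 602.02 (the median scaled background SD) was added, and log2 was taken. Models were fitted in limma 3.58.1 (R 4.3.3) over all 35 arrays in 12 groups, with Benjamini-Hochberg adjustment over all probes tested. The members, gene lists, offset and tests were chosen with earlier results of these data known. Those results used a smaller offset, here an alternative (67.63), with which the pooled comparison called 1 probe and the single compounds 0. Gene lists match symbols, and 4 false matches were corrected after the files were seen. The probes named are those whose groups did not overlap, up to 6 per direction and compound by p, those called, and genes called earlier; other list members and genes of the fold screen were named after their values were seen. Names follow RefSeq's Xenopus_laevis_v10.1 gene table through the platform annotation. The number of arrays limits precision. Recovery of a set change was not tested separately for dim probes or for arrays with a large background SD. The counts that follow are therefore not shown to hold for those. In data simulated for the pooled comparison over 449 probes, 27 of 40 changes of 2 on the log2 scale were called and 2 of 40 changes of 1.

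Alternatives covered offset, floor, scaling, filter, spots, arrays fitted and each 48 h array left out. Fold bounds with each control array left out were added after the data were seen. Deviations of same-numbered arrays from their group means had r from -0.13 to 0.19, against -0.27 to 0.20 for differently numbered arrays. An r over 0.1 was seen in 6 of 18 and 6 of 36 pairs. A pairing by number was not shown, and such correlations cannot exclude it.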

Additional observations from a re-analysis of the deposited data

Results flagged for a closer look

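The effect of the exposures on fzd2.S at 48 h differed from its mean effect at 24 and 96 h by -2.26 on the log2 scale (SE 0.46, adjusted p = 0.00507 in limma). All 9 exposed arrays of 48 h lay below the 3 control arrays. The test did not pass without control replicate 1 of 48 h (adjusted p = 0.125) or with the second spots alone (adjusted p = 0.36).

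For probe 809, which has no gene name, the same difference was -1.84 (SE 0.37, adjusted p = 0.00507). It was not called without control replicate 3 of 48 h (adjusted p = 0.0908), with the second spots alone or on the values as deposited. Both calls thus depended on single control arrays, and the part of the level and noise of the control arrays in them was not tested.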

How the results depend on the processing

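Probe counts at an adjusted p under 0.05 in limma were small under every setting, and which probes they held depended on it. In the pooled comparison the 2 calls became 1 with the offset at the 5th percentile, quantile normalization, the all-probe median or the filter on bright probes, 7 with a floor in place of the offset and 5 with the first spots. With MMI the 1 call became 0 with the smaller offset, the floor, quantile normalization, the replicate block, the first spots or both copies of the shared array left out. With PTU the 1 call became 0 with the smaller offset, quantile normalization, the all-probe median, the 48 h arrays alone, the replicate block, the first spots or both copies left out, 2 on the deposited values and 3 with the floor or the bright-probe filter. With PER the 0 became 4 with the floor, 1 with quantile normalization, 2 with the 48 h arrays alone or the second spots and 3 with the bright-probe filter or the first spots. Differences among the exposures went from 0 to 1 with the floor (probe 265) and with the filter (rpl8.S probe 81). Differences between times went from 2 to 1 on the deposited values or with the filter and to 0 with the second spots. With each array left out in turn, counts ranged from 1 to 14 pooled, 0 to 3 with MMI, 0 to 6 with PTU, 0 to 2 with PER, 0 to 0 among exposures and 1 to 5 between times. The highest pooled, MMI, PTU and PER counts came without control replicate 2, the control array with the least background. The replicate block changed the pooled count from 2 to 3 (adding dlx2.L), and is only a number shared by arrays. The size screen gave 21, 26 and 25 probes with MMI, PTU and PER at a spread limit of 1.7, and 15 with PER without both copies.

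Over 25 settings, msi1.S was called in 22 and fzd2.S in 19 of the pooled fits. The bright-probe filter left fzd2.S untested, since it was above background on only 2 arrays. That filter kept msi1.S through its 9 exposed arrays, so its call there is no separate result. Of 1592 comparisons of a named probe with an alternative, 1497 kept direction and side, 43 lost a call, 35 gained one and 17 turned sign, all 17 for changes that were not called. Pooled changes that turned were rpl8.S probe 39 (0.051) and csnk1a1.L (0.109) with the all-probe median, rpl8.S probe 81 with quantile normalization (-0.076), kif2c.S with the second spots (0.699) and mcm2.L with the first (-0.144). The PER change of kif2c.S (0.148) and the MMI change of mcm2.L (-0.105) turned with the same spots. With arrays left out in turn, the pooled change of rpl8.S probe 81 ranged from -0.058 (without control replicate 1) to 0.29 and that of pcna.S from -0.053 (without control replicate 3) to 1.705. The fap.L change, near 0, was -0.236 with the first spots and -0.015 without the shared array, and ranged from -0.343 to 0.417 with arrays left out. Why these counts and signs moved was not tested.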
